A study of Homo sapiens with 18 samples.

Results

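The machinery of G1 was followed here through 10 genes. They are the kinases CDK4 and CDK6, the D cyclins CCND1, CCND2 and CCND3, the CIP/KIP inhibitors CDKN1A, CDKN1B and CDKN1C, and the INK4 inhibitors CDKN2C and CDKN2D. These genes were chosen by name from the bulk RNA-Seq count table, where they make up 10 of 58037 gene IDs, and all 10 passed the filter on low counts in every comparison. The table held 18 libraries of 3 human AML cell lines, in 8 groups, treated for 16 h or kept as controls. MOLM13 and MV4-11 carry a rearranged MLL1 gene (MLL1-r), and OCI-AML3 carries mutant NPM1 (mtNPM1). VTP50469, which the study calls SNDX-50469, inhibits the binding of Menin to MLL1, and OTX015 inhibits the BET proteins, which read acetylated chromatin.

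MOLM13 cells were kept as controls or given 500 nM VTP50469, 500 nM OTX015 or 500 nM of each, with 2 libraries in each of the 4 groups. MV4-11 cells were kept as controls or given 1000 nM VTP50469, with 2 libraries a group, and OCI-AML3 cells were kept as controls or given 500 nM VTP50469, with 3 libraries a group. MOLM13 and OCI-AML3 grew in RPMI medium and MV4-11 in IMDM medium, so that for MV4-11 the medium cannot be told apart from the line, nor the dose from the line. The study calls its control cells untreated, and the labels name no vehicle. Each line stands for 1 patient's leukemia in culture, and a line is not a replicate of a genotype. The labels do not say that the libraries came from separate cultures; the study calls the MOLM13 and OCI-AML3 replicates biologic, and where replicates are technical the p-values measure only the spread between these libraries.

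In a cycling cell, CDK4 or CDK6 joins a D cyclin and phosphorylates RB, which frees the E2F factors that switch on the genes of S phase. The INK4 proteins bind CDK4 and CDK6 and keep the D cyclins out, whereas the CIP/KIP proteins bind whole cyclin-CDK complexes and block CDK2 above all. CDK6 is a known target of the MLL fusion proteins and a dependency of MLL1-r leukemia, MYC is known to drive CDK4 and D cyclin transcription, and CDKN1A, which encodes p21, is the best known target of p53 but is also induced in myeloid differentiation.

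Total counts ran from 19320216 to 30090830 in the MOLM13 and MV4-11 libraries and from 49881047 to 59711884 in the OCI-AML3 libraries. Mitochondrial transcripts took 4.36% to 8.04% of counts in 17 libraries and 10.3% in MV4-11 control replicate 1. Replicates were closest in MOLM13 and OCI-AML3, with a common biological coefficient of variation of 3.06% and 3.15%, against 13.2% in MV4-11, so a change of a given size passed the test less readily in MV4-11. Of 8 myeloid markers, 7 had counts in each group, with summed levels of 776.1 to 3180 CPM, counts scaled to a library of 1000000, and CSF2RA was at 0 in all libraries. The 6 lymphoid markers summed to 3.26 to 35.3 CPM in MOLM13 and MV4-11 and to 185 to 234 CPM in OCI-AML3, and the 6 epithelial and stromal markers to 0.665 to 24 CPM. The 6 erythroid and megakaryocyte markers summed to at most 2.26 CPM, with HBB at 0 throughout. In these bulk libraries, fewer cells of a type and less RNA per cell cannot be told apart, and a CPM is a share of a library, not an amount of RNA per cell.

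On GRCh38.p14, RefSeq places CDK4 at chr12:57747727-57752310 (minus strand) and CDK6 at chr7:92604921-92836573 (minus). CCND1 lies at chr11:69641156-69654474 (plus), CCND2 at chr12:4273762-4305353 (plus) and CCND3 at chr6:41934933-42050035 (minus). CDKN1A lies at chr6:36676463-36687332 (plus), CDKN1B at chr12:12717368-12722369 (plus) and CDKN1C at chr11:2883218-2885775 (minus). CDKN2C lies at chr1:50960745-50974634 (plus) and CDKN2D at chr19:10566460-10568979 (minus). The counts are per gene, and the submitters' processing notes name hg38.

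Of the promoters that RefSeq gives for the members (assembly GRCh38.p14, 7 of 10 genes matched), 3 are shown because their genes carry the main results: CDK4, which fell more than CDK6 under both agents in MOLM13, CDK6, which fell in all 3 lines under VTP50469, and CDKN1A, which rose under OTX015. Each run is the 250 bases before the transcription start, read 5′ to 3′ on the gene's own strand. Capitals mark E-boxes (CACGTG, the word bound by MYC with MAX, the same on both strands) and GC boxes (GGGCGG, searched on both strands, so that CCGCCC is its other strand). The CDK4 window is chr12:57752311-57752560, minus strand, and lies just upstream of the gene. The CDK6 window is chr7:92836574-92836823, minus strand, just upstream of the gene's first start, 1 of 2 starts listed. The CDKN1A window is chr6:36678464-36678713, plus strand, inside the annotated extent of the gene, which begins at an earlier start.
CDK4: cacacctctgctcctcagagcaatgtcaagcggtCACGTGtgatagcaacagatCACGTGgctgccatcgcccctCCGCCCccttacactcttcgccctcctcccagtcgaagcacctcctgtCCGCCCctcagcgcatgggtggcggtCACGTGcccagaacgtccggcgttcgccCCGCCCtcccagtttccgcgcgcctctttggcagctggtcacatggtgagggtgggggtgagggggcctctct
CDK6: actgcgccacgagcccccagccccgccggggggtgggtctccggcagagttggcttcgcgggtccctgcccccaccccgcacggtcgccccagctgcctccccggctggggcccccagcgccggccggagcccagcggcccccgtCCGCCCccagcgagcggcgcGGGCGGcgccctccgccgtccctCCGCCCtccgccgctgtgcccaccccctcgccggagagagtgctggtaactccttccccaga
CDKN1A: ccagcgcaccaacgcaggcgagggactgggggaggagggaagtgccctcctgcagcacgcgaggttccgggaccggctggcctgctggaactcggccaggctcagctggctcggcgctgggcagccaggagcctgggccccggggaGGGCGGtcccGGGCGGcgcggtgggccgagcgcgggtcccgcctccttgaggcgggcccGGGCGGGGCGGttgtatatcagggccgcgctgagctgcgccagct

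The CDK4 promoter held 3 E-boxes, beginning 216, 196 and 101 bases before the start, and 3 GC boxes. Of 35116 promoters of the same length, 6.34% held an E-box and 42.6% a GC box. The CDK6 window held 3 GC boxes and the CDKN1A window 4, of which the last pair overlap, and neither window held an E-box. On either strand, the 3 windows held 0 copies of TATAAA, found in 10.7% of promoters, and 0 of 4 words of the E2F type (TTTCGCGC, TTTGGCGC, TTTCCCGC and TTTGCCGC), found in 2.79%. E-boxes also lay in CDKN2C windows not shown, 220 bases before the start in chr1:50960495-50960744 and 69 bases before it in chr1:50969995-50970244. CDKN2C rose under OTX015 alone in MOLM13, where CDK4 fell, and a link of E-boxes to these changes was not tested. These matches are letters in a window and not measured sites.

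**Figure D1:**
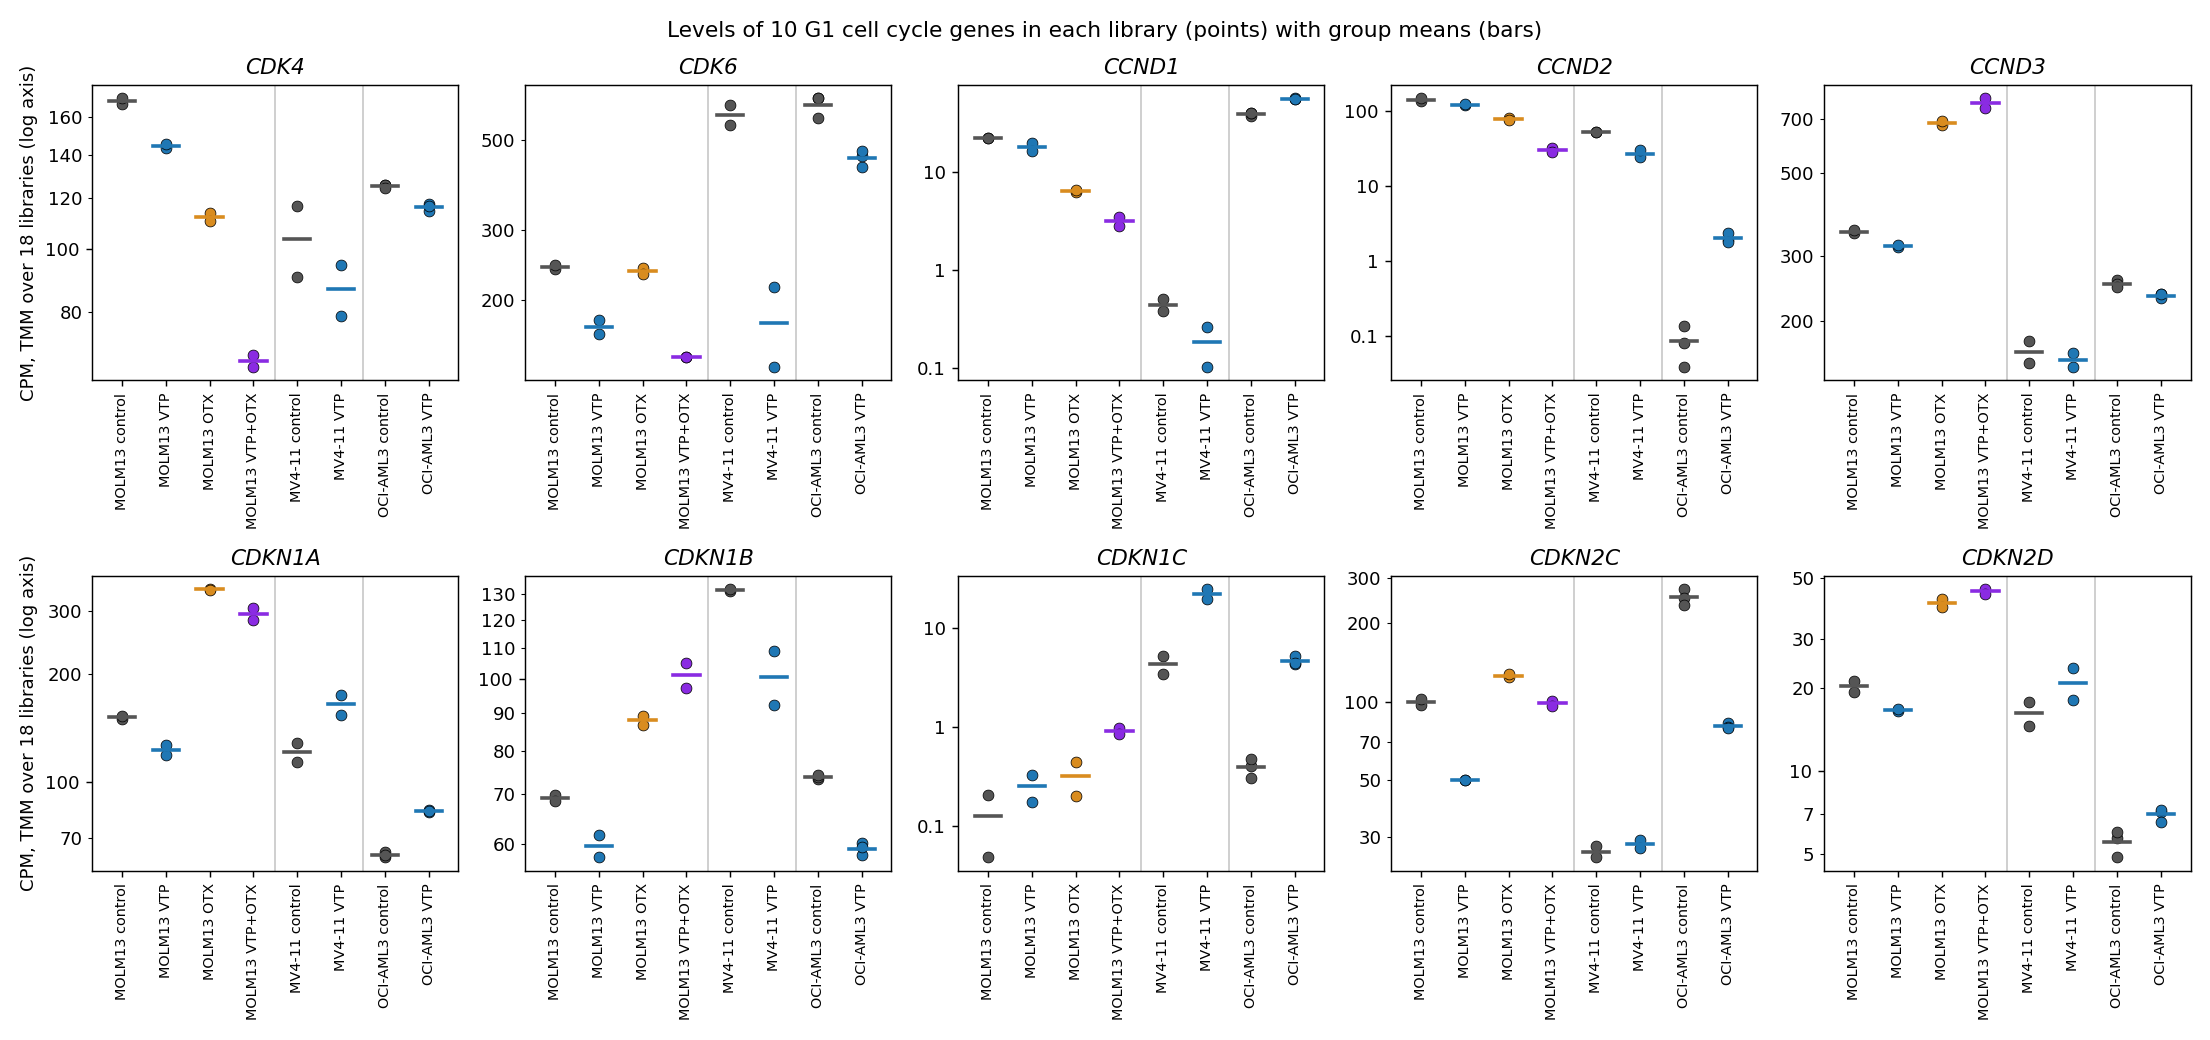
Levels of the 10 genes in each library, in CPM scaled over all 18 libraries (log axis, with its own range in each panel). Points are libraries, bars are group means, and grey lines part the 3 cell lines. CDK4, CCND1 and CCND2 step down across the 4 MOLM13 groups. CCND3 and CDKN1A stand high in the groups with OTX015, and CCND2 is near its floor in OCI-AML3 control cells.

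A gene is called changed here when its adjusted p, from edgeR's quasi-likelihood test with Benjamini-Hochberg adjustment over all tested genes of the comparison, is below 0.05 and its change is at least 0.32 on the log2 scale in either direction, called the fold limit. Over the 10 members, VTP50469 in MOLM13 gave 0 calls higher and 2 lower, where 8.06% of 14360 tested genes were called higher and 5.24% lower. At an unadjusted edgeR p under 0.05, 0 members were higher and 9 lower, and DESeq2 and limma-voom each also called 0 higher and 2 lower. OTX015 called 5 higher and 3 lower against 23.5% and 24.7% of all genes, and the combination 5 higher and 4 lower against 31.2% and 30.9%. These 3 comparisons share their control libraries. In MV4-11 the counts were 2 higher and 2 lower, against 11.4% and 9.34% of 15486 genes. In OCI-AML3 they were 5 higher and 2 lower, against 8.58% and 4.53% of 16611 genes. The median log2 fold change of all tested genes was within 0.02 of 0 in each of these 5 comparisons.

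CDK4 and CDK6 carry the catalytic activity of the complex. Under VTP50469 alone, CDK6 fell in all 3 lines, while CDK4 was under the fold limit or did not pass the test. Conversely, under OTX015 alone in MOLM13, CDK4 fell and CDK6 did not pass the test. Under both agents both kinases fell, and CDK4 fell by more than the single agents add up to.

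In MOLM13, the level of CDK4 was 157.6 and 159.9 CPM in the control libraries, 136.6 and 140.2 CPM under VTP50469, 109 and 105.3 CPM under OTX015, and 64.5 and 61.3 CPM under both. No 2 of these 4 groups overlapped. The log2 fold change against control was -0.57 ± 0.05 (SE, n = 2 against 2, edgeR adjusted p = 5.39e-17) under OTX015 and -1.34 ± 0.05 (adjusted p = 3.59e-34) under both, a 2.53-fold fall. Under VTP50469 alone it was -0.20 ± 0.05 (adjusted p = 0.000363), which is under the fold limit. In MV4-11, CDK4 was at 90.8 and 119.5 CPM in control libraries and at 96.7 and 81.5 CPM under VTP50469, with overlapping groups (-0.24 ± 0.17, edgeR adjusted p = 0.335). In OCI-AML3, the 3 control libraries were at 133.1, 132.8 and 131.9 CPM and the 3 treated ones at 124.7, 122 and 123.7 CPM, which came to -0.10 ± 0.03 (edgeR adjusted p = 0.00619), again under the fold limit although the groups did not overlap. CDK4 shares 44.2% of its exon bases with TSPAN31 on the opposite strand, and the sources used here do not say whether counting used strand, so reads of the pair cannot be told apart. TSPAN31 went the other way in MOLM13, from 9.34 and 9.92 CPM in control cells to 17.4 and 16.8 CPM under both agents (log2 fold change 0.83 ± 0.11, edgeR adjusted p = 4.68e-10).

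CDK6 was at 224.8 and 228.9 CPM in the MOLM13 control libraries, at 170.1 and 159.2 CPM under VTP50469, at 231.2 and 222 CPM under OTX015 and at 136 and 134.5 CPM under both. The OTX015 libraries thus enclosed the control libraries, while both groups with VTP50469 lay below them. Against control, the log2 fold change was -0.46 ± 0.04 (n = 2 against 2, edgeR adjusted p = 1.14e-13) under VTP50469, 0.00 ± 0.04 (adjusted p = 0.966) under OTX015 and -0.75 ± 0.04 (adjusted p = 7.5e-24) under both. In MV4-11 the 2 control libraries were at 547 and 628.4 CPM and the 2 treated libraries at 140.1 and 222.5 CPM, which was a change of -1.70 ± 0.20 (edgeR adjusted p = 1.79e-05), or a 3.24-fold fall. The treated MV4-11 libraries differed from each other by more than any other CDK6 pair, and the log2 fold change was -1.43 without VTP50469 replicate 1 and -2.07 without VTP50469 replicate 2. Without MV4-11 control replicate 1, the library with the most mitochondrial counts, it was -1.80, a value with 1 control library left, whose spread is assumed to be that of the treated pair. In OCI-AML3 the controls were at 601.9, 673.3 and 675.5 CPM and the treated libraries at 457.7, 487.4 and 500.3 CPM, which was a change of -0.43 ± 0.04 (edgeR adjusted p = 3.69e-06). The fall in OCI-AML3 differed from that in MOLM13 at the same 500 nM by 0.06 on the log2 scale, with a 95% interval of -0.28 to 0.40 (edgeR adjusted p = 0.945). MV4-11 received 1000 nM, so its fall is given beside the others and not compared with them.

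An antisense transcript at the CDK6 locus, CDK6-AS1, shares 0.703% of the exon bases of CDK6. It fell with CDK6 under VTP50469, from 92 and 67 counts to 8 and 7 counts in MOLM13 (log2 fold change -3.49 ± 0.35, edgeR adjusted p = 3.06e-12), from 318 and 470 counts to 74 and 59 counts in MV4-11 (-2.75 ± 0.22, edgeR adjusted p = 5.4e-07), and from 98, 89 and 92 counts to 31, 44 and 23 counts in OCI-AML3 (-1.59 ± 0.20, edgeR adjusted p = 3.58e-05). Under OTX015 alone in MOLM13, where CDK6 did not pass the test, CDK6-AS1 fell as well, to 23 and 21 counts (-1.83 ± 0.29, edgeR adjusted p = 1e-07).

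The D cyclins, the partners that activate CDK4 and CDK6, moved apart from each other. In MOLM13, OTX015 lowered CCND1 and CCND2 and raised CCND3, and the combination did the same more strongly for the first pair. In OCI-AML3, VTP50469 raised CCND1 and CCND2, and in MV4-11 it lowered CCND2. Under VTP50469 alone in MOLM13, all 3 were below the control libraries by less than the fold limit.

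CCND2, the D cyclin most used in hematopoietic cells beside CCND3, was at 128.1 and 136.9 CPM in MOLM13 control cells, 112.3 and 118.1 CPM under VTP50469, 77.7 and 71.1 CPM under OTX015 and 30.2 and 26.6 CPM under both. As for CDK4, the 4 groups stepped down without overlap. On the log2 scale, the change was -0.20 ± 0.05 under VTP50469 (edgeR adjusted p = 0.00111, under the fold limit), -0.83 ± 0.05 under OTX015 (adjusted p = 9.31e-22) and -2.23 ± 0.06 under both (adjusted p = 3.55e-41), a 4.68-fold fall. In MV4-11 it fell from 51.7 and 52.7 CPM to 24.7 and 30.5 CPM (log2 fold change -0.92 ± 0.16, edgeR adjusted p = 0.000862). In OCI-AML3 the 3 control libraries held 2, 7 and 5 counts of CCND2 and the 3 treated libraries 111, 138 and 107 counts, or 0.089 ± 0.050 CPM (SD, n = 3) against 2.14 ± 0.31 CPM. The log2 fold change there was 4.55 ± 0.27 (edgeR adjusted p = 3.65e-08), and the ratio of summed counts was 25 with an exact 95% interval of 14.7 to 46.1 that covers counting error only. On the scale over all 18 libraries the treated OCI-AML3 level was 2.01 ± 0.29 CPM, beside 141.3 ± 7.4 CPM in MOLM13 control cells. CCND2 shares 12.5% of its exon bases with an unnamed gene on the same strand, and the antisense CCND2-AS1 had 2 counts in 1 library and 0 in the other 17.

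CCND1 was low in MOLM13, at 20.9 CPM in both control libraries, 18.7 and 15.8 CPM under VTP50469, 6.02 and 6.26 CPM under OTX015, and 3.29 and 2.62 CPM under both. Against control, the log2 fold change was -0.28 ± 0.10 under VTP50469 (edgeR adjusted p = 0.0193, under the fold limit), where leaving out VTP50469 replicate 1 took it to -0.41 and past the limit. It was -1.76 ± 0.12 (edgeR adjusted p = 3.87e-21) under OTX015 and -2.83 ± 0.14 (adjusted p = 2.39e-28) under both, a 7.09-fold fall. In OCI-AML3 the gene rose, from 39.1, 41.8 and 42.5 CPM to 58.5, 60 and 59.5 CPM (log2 fold change 0.53 ± 0.04, edgeR adjusted p = 1.19e-07). In MV4-11 only 10 and 12 counts against 3 and 8 counts were seen, and the difference of -1.18 ± 0.66 did not pass the test (edgeR adjusted p = 0.216). The OCI-AML3 effect exceeded the MOLM13 effect by 0.83 (95% interval 0.59 to 1.08, edgeR adjusted p = 0.000105) for CCND1 and by 4.76 (4.17 to 5.35, adjusted p = 1.22e-09) for CCND2. LTO1, on the opposite strand, shares 10.4% of the exon bases of CCND1, and shared reads cannot be told apart if counting ignored strand.

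CCND3 was the D cyclin with the most counts in every group. It rose 2-fold under OTX015 in MOLM13, from 324.1 and 327.9 CPM to 646 and 658.7 CPM (log2 fold change 1.00 ± 0.04, edgeR adjusted p = 2.06e-32), and reached 745.2 and 694.3 CPM under both agents (1.14 ± 0.04, adjusted p = 5.1e-36). VTP50469 alone left it at 302.5 and 307.9 CPM (-0.10 ± 0.04, edgeR adjusted p = 0.0567). On the log2 scale, the change was -0.05 ± 0.15 (edgeR adjusted p = 0.856) in MV4-11 and -0.10 ± 0.03 (edgeR adjusted p = 0.00604, under the fold limit) in OCI-AML3.

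Per kb of exon, so that the 3 genes can be set beside each other, CCND3 made up 73.0% ± 0.6 of summed D cyclin level in MOLM13 control cells (SD, n = 2), 74.6% ± 0.1 under VTP50469, 91.4% ± 0.5 under OTX015 and 96.8% ± 0.2 under both. CCND2 went from 21.4% ± 0.7 in MOLM13 control cells to 2.75% ± 0.11 under both agents. The summed level of the 3 genes was 82.7 ± 1.8 CPM per kb in MOLM13 control cells and 138 ± 6.3 CPM per kb under both agents, so the sum was higher while 2 of its 3 parts were lower. In OCI-AML3 the minor share was CCND1, at 15.7% ± 0.8 in control cells and 22.3% ± 0.4 under VTP50469 (n = 3), and in MV4-11 it was CCND2, at 18.3% ± 1.5 and 10.9% ± 1.9 (n = 2). With the length of the main transcript in place of all exon bases, CCND3 held 86.4% in MOLM13 control cells and stayed first in all 8 groups.

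**Figure D2:**
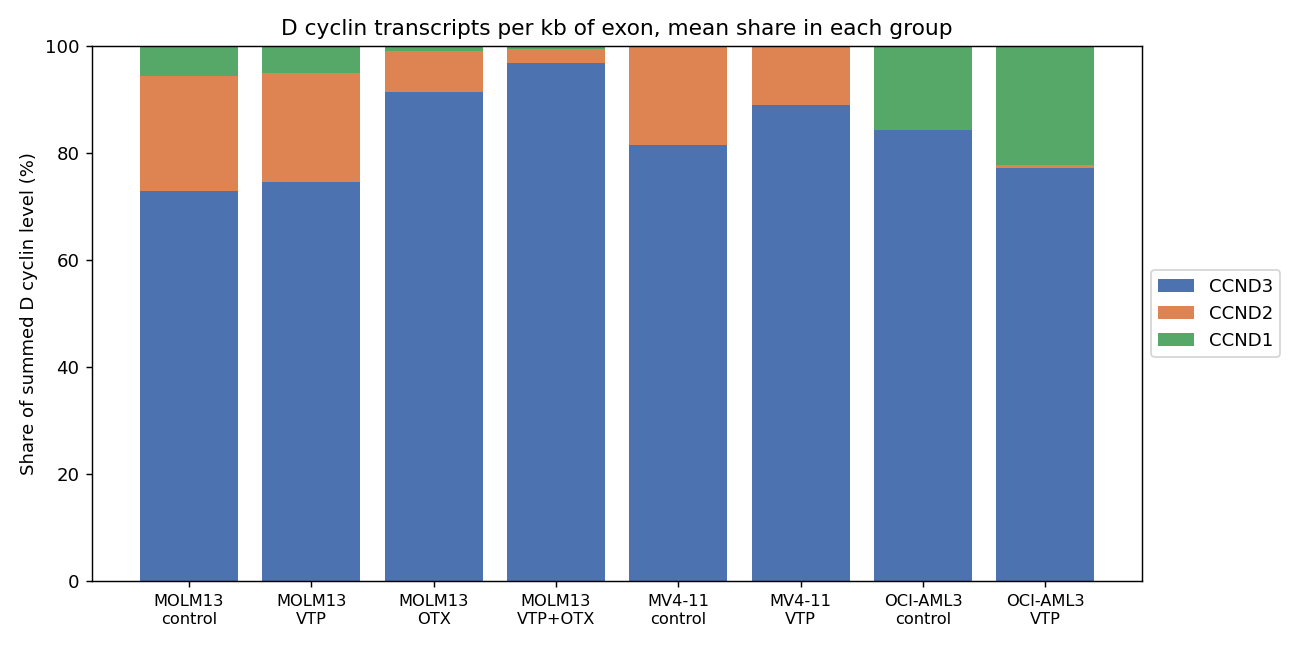
Mean share of each D cyclin in the summed D cyclin level per kb of exon, in percent, for the 8 groups (2 or 3 libraries each). CCND3 fills 73.0% of the bar in MOLM13 control cells and 96.8% under both agents, CCND2 makes up most of the rest in MOLM13 and MV4-11, and CCND1 does so in OCI-AML3.

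Among the CIP/KIP inhibitors, OTX015 raised CDKN1A and CDKN1B in MOLM13, the line that received it, and neither was called higher there under VTP50469. VTP50469 raised CDKN1A and CDKN1C in MV4-11 and OCI-AML3. CDKN1B, which encodes p27, was not called in either of these lines.

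CDKN1A was at 141.8 and 143.1 CPM in MOLM13 control cells, 113.7 and 122.5 CPM under VTP50469, 330.7 and 327.7 CPM under OTX015 and 287.2 and 263.6 CPM under both. The log2 fold change was 1.21 ± 0.04 (n = 2 against 2, edgeR adjusted p = 7.15e-34) under OTX015 and 0.95 ± 0.04 (adjusted p = 7.14e-29) under both. Under VTP50469 it was -0.27 ± 0.05 (edgeR adjusted p = 3.61e-06), below control in both libraries but under the fold limit, and leaving out VTP50469 replicate 2 took it to -0.33 and past that limit. The combination did not exceed OTX015 alone, with a log2 difference of -0.26 ± 0.04 (edgeR adjusted p = 3.94e-07), also under the limit. In OCI-AML3 the gene rose from 65.7, 67.9 and 66.7 CPM to 89.2, 88.2 and 88.6 CPM (log2 fold change 0.41 ± 0.03, edgeR adjusted p = 1.49e-07). The OCI-AML3 effect exceeded the MOLM13 effect by 0.71 (95% interval 0.52 to 0.89, edgeR adjusted p = 3.12e-05). In MV4-11 it rose from 114.5 and 132.2 CPM to 179.6 and 159.6 CPM (0.46 ± 0.15, edgeR adjusted p = 0.0423), a call that was lost without control replicate 1 (0.35), control replicate 2 (0.56) or VTP50469 replicate 1 (0.34). DINOL, a noncoding RNA on the other strand, shares 4.87% of the exon bases of CDKN1A.

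CDKN1B went from 65.8 and 64 CPM in MOLM13 control cells to 85.4 and 82.7 CPM under OTX015 (log2 fold change 0.37 ± 0.05, edgeR adjusted p = 1.58e-08) and 91.3 and 97.8 CPM under both (0.55 ± 0.05, adjusted p = 4.81e-14). It was at 58.7 and 55.5 CPM under VTP50469 (-0.18 ± 0.06, edgeR adjusted p = 0.008, under the fold limit). In OCI-AML3 the log2 fold change was -0.316 ± 0.029 (edgeR adjusted p = 1.93e-06), just under the limit of 0.322, which it passed without VTP50469 replicate 1 (-0.323). In MV4-11 it was -0.37 ± 0.15 (edgeR adjusted p = 0.099), and passed without VTP50469 replicate 2 (-0.50). Most control of p27 is known to act on the protein, which was not measured in these libraries.

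CDKN1C, which encodes p57 and is an imprinted gene, had the fewest counts of the members in MOLM13, with 4 and 1 counts in control cells, 7 and 4 under VTP50469, 4 and 9 under OTX015, and 18 and 17 under both. The combination differed from control (log2 fold change 2.81 ± 0.64, edgeR adjusted p = 8.47e-05), with a ratio of summed counts of 7.83 and an exact 95% interval of 3.05 to 25.6. Neither single agent passed, with ratios of 2.11 (0.677 to 7.75) for VTP50469 and 2.73 (0.912 to 9.77) for OTX015. In MV4-11 the gene rose from 3.39 and 5.35 CPM to 25.1 and 20.1 CPM (2.35 ± 0.23, edgeR adjusted p = 2.88e-06), or 5.09-fold. In OCI-AML3 it rose from 21, 25 and 19 counts to 299, 256 and 264 counts (3.57 ± 0.15, edgeR adjusted p = 1.24e-09), or 11.8-fold. The groups did not overlap in either of these lines. The OCI-AML3 effect minus the MOLM13 effect was 2.58 with a wide 95% interval of 0.35 to 4.80 and did not pass the test (edgeR adjusted p = 0.218).

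The INK4 inhibitors of the list, CDKN2C (p18) and CDKN2D (p19), did not move together. VTP50469 lowered CDKN2C in MOLM13 and OCI-AML3, and OTX015 raised both genes in MOLM13. In the combination CDKN2C overlapped the control libraries, and CDKN2D did not differ by the test from OTX015 alone.

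CDKN2C was at 91 and 95.4 CPM in MOLM13 control cells and at 47.7 and 48 CPM under VTP50469 (log2 fold change -0.96 ± 0.05, edgeR adjusted p = 2.85e-23), the largest change of a member under that agent in MOLM13 apart from the uncalled CDKN1C. It was at 118.6 and 121.5 CPM under OTX015 (0.37 ± 0.05, edgeR adjusted p = 1.99e-09) and at 94.2 and 90 CPM under both (-0.02 ± 0.05, adjusted p = 0.759). The combination thus overlapped the control libraries and lay between the single agents. In OCI-AML3 the gene fell from 287.9, 264.8 and 251 CPM to 87.6, 85.1 and 83.7 CPM (-1.65 ± 0.04, edgeR adjusted p = 1.01e-11), a 3.13-fold fall that was larger than in MOLM13 by 0.66 on the log2 scale (difference -0.66, 95% interval -0.85 to -0.47, edgeR adjusted p = 7.77e-05). In MV4-11 it was at 25.2 and 28.4 CPM and then 29.9 and 28.3 CPM, with overlapping groups (0.12 ± 0.16, edgeR adjusted p = 0.665). An unnamed gene on the opposite strand shares 20.4% of its exon bases.

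CDKN2D was at 18.2 and 19.8 CPM in MOLM13 control cells, 15.7 and 16.1 CPM under VTP50469 (log2 fold change -0.25 ± 0.09, edgeR adjusted p = 0.0185, under the fold limit), 40.1 and 37.3 CPM under OTX015 (1.03 ± 0.08, adjusted p = 1.58e-18) and 42.9 and 40.9 CPM under both (1.14 ± 0.08, adjusted p = 4.39e-21). In OCI-AML3 it rose from 6.03, 6.35 and 5.16 CPM to 7.56, 7.71 and 6.90 CPM (0.34 ± 0.08, edgeR adjusted p = 0.00484), a small change that was not called without control replicate 3 (0.26) or VTP50469 replicate 2 (0.32). In MV4-11 it was at 14.6 and 18.3 CPM against 24.1 and 18.6 CPM (0.37 ± 0.19, edgeR adjusted p = 0.174), and was called without VTP50469 replicate 2 (0.55). The OCI-AML3 effect minus the MOLM13 effect was 0.62 (95% interval 0.28 to 0.97, edgeR adjusted p = 0.0323), a call that 10 of 17 other settings did not keep.

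CDKN2A and CDKN2B, the INK4 genes outside the list, had 0 counts in all 8 MOLM13 libraries. In MV4-11 control cells they were at 102 and 8.95 CPM by library total, at least 733-fold and 64-fold higher than the limit of 3 counts in a MOLM13 control library, and in OCI-AML3 control cells at 7.41 and 2.84 CPM, at least 53-fold and 20.3-fold higher. VTP50469 lowered CDKN2A (log2 fold change -0.71 ± 0.07, edgeR adjusted p = 3.45e-06) and raised CDKN2B (0.63 ± 0.09, adjusted p = 8.65e-05) in OCI-AML3. In MV4-11 it lowered CDKN2B (-0.65 ± 0.21, edgeR adjusted p = 0.0366) and CDKN2A did not pass the test (-0.38 ± 0.15, adjusted p = 0.0865). The CDKN2A count pools all transcripts of the gene, and CDKN2B-AS1 on the opposite strand shares 15.3% of its exon bases.

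**Figure D3:**
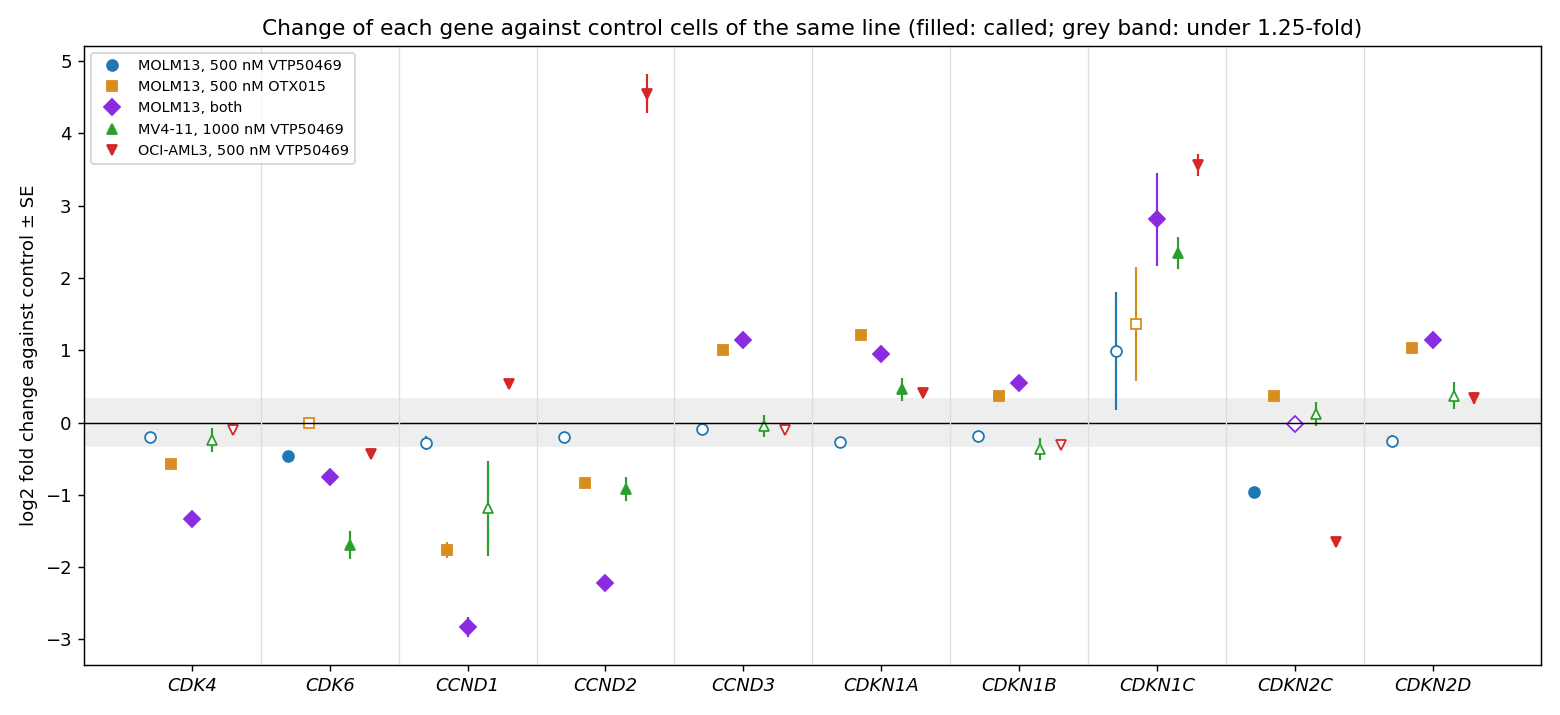
Log2 fold change of each of the 10 genes against control cells of the same line (vertical axis, ± SE), for 3 treatments in MOLM13 and 1 each in MV4-11 and OCI-AML3. Filled marks are called and open marks are not, and the grey band spans changes under the fold limit of 0.32. CDK6 is filled and below 0 under VTP50469 in all 3 lines, and CCND2 in OCI-AML3 stands highest at 4.55.

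To ask what the second agent added, the combination was set against each agent alone. Against VTP50469 it called 6 members higher and 3 lower (27.9% and 29.0% of all genes), and CDK6 alone was not called (log2 difference -0.28 ± 0.04, edgeR adjusted p = 7.73e-08, under the fold limit). Leaving out VTP50469 replicate 2 took CDK6 to -0.33 and past that limit. CDKN2C was 1.93-fold higher in the combination than under VTP50469 (log2 difference 0.95 ± 0.05, edgeR adjusted p = 2.32e-24). Against OTX015 the combination called 1 member higher, CDKN1C, and 5 lower (18.4% and 16.5% of all genes). Those lower were CDK4 (-0.77 ± 0.05), CDK6 (-0.74 ± 0.04), CCND1 (-1.06 ± 0.17), CCND2 (-1.39 ± 0.06) and CDKN2C (-0.38 ± 0.05), with edgeR adjusted p of 1.75e-07 or smaller. The CDKN1C call was lost without OTX015 replicate 1 (1.00) or combination replicate 1 (1.36), and against VTP50469 without VTP50469 replicate 2 (1.44).

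The interaction term tests whether both agents together differ from the sum of their single effects on the log2 scale. It called 3 members above the sum and 3 below, where 11.5% of all genes were called above it and 12.7% below. Below the sum were CCND2 (-1.19 ± 0.08, edgeR adjusted p = 3.69e-19), CCND1 (-0.78 ± 0.19, adjusted p = 0.000959) and CDK4 (-0.57 ± 0.07, adjusted p = 2.4e-10). Their single effects summed to -1.04, -2.04 and -0.76, and the combination gave -2.23, -2.83 and -1.34. Above the sum were CDKN2C (0.58 ± 0.07, edgeR adjusted p = 1.43e-09), CDKN2D (0.37 ± 0.11, adjusted p = 0.00684) and CDKN1B (0.36 ± 0.08, adjusted p = 0.000153). The CDKN1B call was lost without VTP50469 replicate 2 (0.31) or combination replicate 2 (0.30), and the CDKN2D call without control replicate 2 (0.30) or OTX015 replicate 2 (0.32). CDK6 was below its sum by a term of -0.28 ± 0.06 (edgeR adjusted p = 0.00017) that is under the fold limit, and it was called without VTP50469 replicate 2 (-0.33). For CDKN1A the term was 0.01, with a 95% interval of -0.11 to 0.14 (edgeR adjusted p = 0.91).

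**Figure D4:**
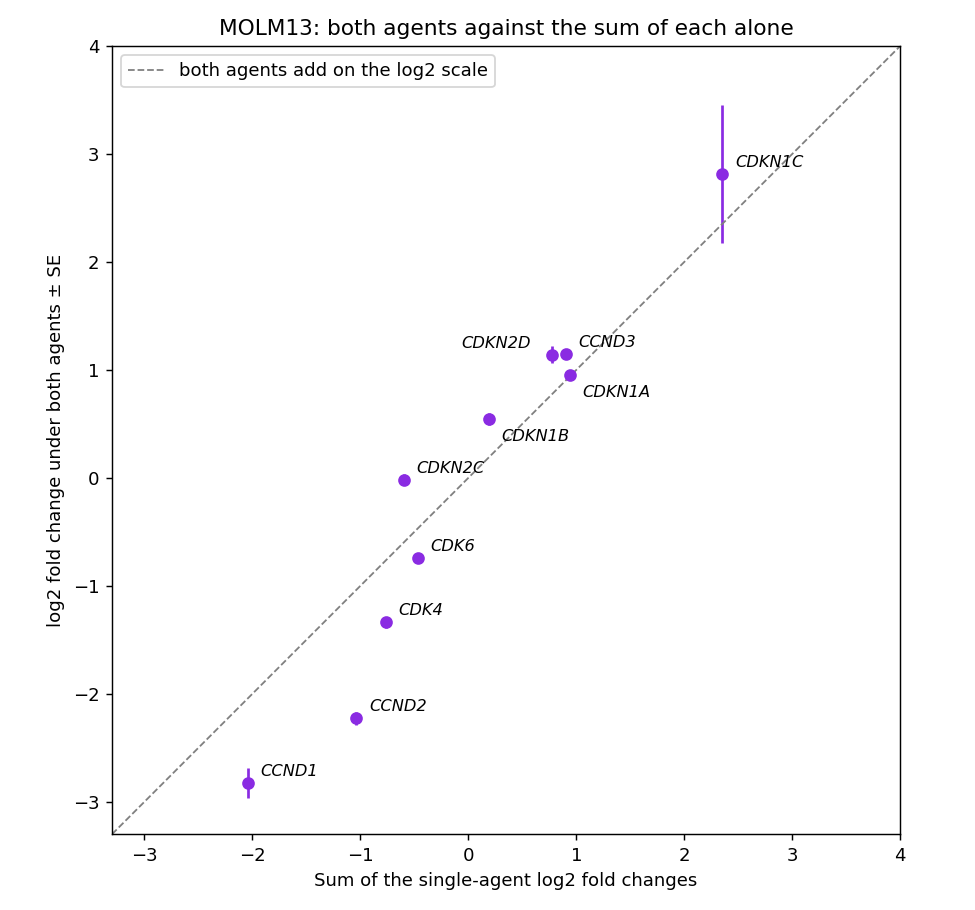
Log2 fold change of the 10 genes in MOLM13 under both agents (vertical axis, ± SE) against the sum of the 2 single-agent changes (horizontal axis). The dashed line is where the agents add. CCND2, CCND1 and CDK4 lie below it, CDKN2C lies above it, and CDKN1A lies on it within its error.

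MYC, among 10 upstream regulators listed with the pathway, moved in the same order across the MOLM13 groups as CDK4, CCND1 and CCND2. It went from 1607 and 1670 CPM in control cells to 1287 and 1296 CPM under VTP50469 and 763.6 and 773.1 CPM under OTX015. Under both agents it was at 217.9 and 233.9 CPM (log2 fold change -2.86 ± 0.04, edgeR adjusted p = 1.52e-56). It fell under VTP50469 in MV4-11 (-0.93 ± 0.16, edgeR adjusted p = 0.000683) and OCI-AML3 (-0.35 ± 0.02, adjusted p = 4.63e-08). MEIS1, a target of the Menin-MLL1 complex, fell too, with log2 fold changes under VTP50469 alone of -2.60 ± 0.09 (MOLM13), -1.86 ± 0.17 (MV4-11) and -0.49 ± 0.04 (OCI-AML3). Unlike MYC, MEIS1 was higher in the MOLM13 combination than under VTP50469 alone (log2 difference 2.10 ± 0.10, edgeR adjusted p = 2.26e-28), as was HOXA9 (1.06 ± 0.07, adjusted p = 6.84e-22). FOXO1 and FOXO3, factors known to act on CDKN1B, rose under both agents in MOLM13 (2.62 ± 0.18 and 1.19 ± 0.05), while FOXO1 fell in OCI-AML3 under VTP50469 (-1.10 ± 0.05, edgeR adjusted p = 2.26e-09). Under OTX015 alone, 4 of the 10 regulators were higher and 2 lower (23.5% and 24.7% of all genes), and under both agents 4 were higher and 3 lower (31.2% and 30.9%).

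Downstream of the kinases, 16 E2F target genes of S phase were listed. Of these 16, 0 were called under VTP50469 in MOLM13 and 0 in OCI-AML3 by edgeR, DESeq2 or limma-voom. Of all tested genes, edgeR called 8.06% higher and 5.24% lower in MOLM13, and 8.58% and 4.53% in OCI-AML3. At an unadjusted edgeR p under 0.05, 2 of the 16 were higher and 6 lower in MOLM13, and 1 was higher and 8 lower in OCI-AML3. In MV4-11, 3 of the 16 were lower (9.34% of all genes), CDC6 (-0.65 ± 0.16), MCM6 (-0.53 ± 0.15) and RRM2 (-0.48 ± 0.15). Under both agents in MOLM13, 3 of the 16 were higher and 1 lower, where 31.2% and 30.9% of all genes were called. RRM2, a subunit of ribonucleotide reductase, was at 1.18 ± 0.04 there, TK1, thymidine kinase, at 1.05 ± 0.05, and MCM2 of the replication helicase at -0.40 ± 0.04. The median of the 16 was -0.11 there, beside 0.02 over all tested genes. Of the RB and E2F family of 13, 3 were higher and 5 lower under both agents (31.2% and 30.9% of all genes). These calls were led by E2F5 (-1.24 ± 0.11), the repressor E2F7 (1.18 ± 0.08), TFDP1 (-0.77 ± 0.04) and E2F4 (-0.70 ± 0.05).

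Of 6 genes for CDK2, its cyclins and its activating phosphatase, 3 were higher and 2 lower under both agents in MOLM13 (31.2% and 30.9% of all genes). CCNA1, a cyclin A of germ and myeloid cells, rose (1.75 ± 0.05), as did CCNE2 (1.24 ± 0.08), while CDC25A, the phosphatase, fell (-1.24 ± 0.06). CCNA1 also rose under VTP50469 in MOLM13 (0.69 ± 0.06) and MV4-11 (1.19 ± 0.16) and fell in OCI-AML3 (-0.57 ± 0.15). In MV4-11, CDC25A (-0.79 ± 0.17) and CCNA2 (-0.53 ± 0.16) were lower under VTP50469, where 9.34% of all genes were called lower. Of the 3 subunits of the CDK-activating kinase, CCNH fell under OTX015 (-0.63 ± 0.07) and under both agents (-0.64 ± 0.07), and neither CDK7 nor MNAT1 was called in any of the 5 comparisons with control cells. Of 8 genes for the turnover of D cyclins and p27, 2 were higher and 4 lower under both agents (31.2% and 30.9% of all genes). These calls were led by FBXO4 (-1.36 ± 0.11), an F-box gene listed for D cyclins, GSK3B (0.95 ± 0.05), which marks D cyclins for decay, and SKP2 (-0.73 ± 0.05) and CKS1B (-0.56 ± 0.07), which act on p27. VTP50469 alone gave 0 calls among these 8 in each line by edgeR, where at most 11.4% of all genes were called higher and 9.34% lower. At an unadjusted edgeR p under 0.05, 1 of the 8 was higher and 5 lower in MOLM13, 0 of the 8 passed in MV4-11, and 1 was higher and 4 lower in OCI-AML3. DESeq2 called 1 lower in MOLM13.

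Of 12 mitosis genes, 2 were higher and 5 lower under both agents in MOLM13 (31.2% and 30.9% of all genes). These calls were led by UBE2C (-1.36 ± 0.06), MKI67 (1.19 ± 0.04), PLK1 (-0.76 ± 0.04) and AURKA (-0.58 ± 0.05). MKI67, which encodes Ki-67, also rose under VTP50469 alone in MOLM13 (0.54 ± 0.04), as did TOP2A (0.36 ± 0.04). MKI67 was not called under VTP50469 in MV4-11 (-0.02 ± 0.17) or OCI-AML3 (0.22 ± 0.05). Of the p53 targets other than CDKN1A, 12 of 14 were tested in MOLM13 and 5 were higher and 3 lower under both agents, beside the same shares of all genes. BTG2 was at 2.46 ± 0.10 there, XPC at 0.84 ± 0.07 and RRM2B at 0.80 ± 0.06. Under VTP50469, those higher were 2 of 12 tested in MOLM13 (8.06% of all genes), 4 of 13 for MV4-11 (11.4%), and in OCI-AML3 3 of 14 (8.58%). By edgeR, DESeq2 and limma-voom 0 were called lower in these 3 comparisons, beside 1, 2 and 2 lower at an unadjusted edgeR p under 0.05. Of all genes, edgeR called 5.24%, 9.34% and 4.53% lower in them. BTG2 was called in all 3 lines (0.50 ± 0.12, 0.72 ± 0.15 and 0.32 ± 0.03). The myeloid markers moved with the treatments too. Their summed level in MOLM13 was 1214 to 1239 CPM in control cells, 1500 to 1533 CPM under VTP50469, 776.1 to 812 CPM under OTX015 and 1237 to 1260 CPM under both, and single markers went both ways. Under OTX015, 1 was higher and 5 lower (23.5% and 24.7% of all genes), led by MPO (-4.53 ± 0.09), LYZ (-1.94 ± 0.05), SPI1 (-0.96 ± 0.04) and ITGAX (0.72 ± 0.15). Under both agents, 3 were higher and 4 lower (31.2% and 30.9%), led by MPO (-4.04 ± 0.08), ITGAX (2.81 ± 0.12), LYZ (-0.80 ± 0.05) and PTPRC (0.76 ± 0.05). Under VTP50469 alone in MOLM13, 3 were higher (8.06% of all genes), ITGAX (1.08 ± 0.14), LYZ (0.92 ± 0.04) and MPO (0.70 ± 0.05). The other lines differed in part. In MV4-11 under VTP50469, ITGAX (1.35 ± 0.19) and CEBPA (1.27 ± 0.19) were higher and MPO (-0.77 ± 0.17) lower. In OCI-AML3, ITGAX (0.53 ± 0.12) was higher, and CEBPA (-0.53 ± 0.10) and SPI1 (-0.42 ± 0.07) were lower. Their part in the members' changes was not tested.

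Control cells of the 3 lines already differed in most members, on levels scaled over all 18 libraries. OCI-AML3 against MOLM13 called 4 members higher and 5 lower, where 33.7% and 30.5% of 17597 genes were called. MV4-11 against MOLM13 called 3 higher and 5 lower (34.2% and 29.3%), and OCI-AML3 against MV4-11 called 3 higher and 5 lower (33.1% and 34.3%). With no scaling factors the median of all genes moved by 0.20 in OCI-AML3 against MOLM13 and by 0.14 in MV4-11 against MOLM13, and with limma-voom and quantile normalization it moved by -0.14 and -0.20, so small differences between lines depend on the scaling.

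CDK6 was 241.9 ± 4.4 CPM in MOLM13 control cells, 579.6 ± 47.8 CPM in MV4-11 and 613.3 ± 39.8 CPM in OCI-AML3 (SD, n = 2, 2 and 3). MOLM13 was lowest, with log2 differences of 1.26 ± 0.13 (edgeR adjusted p = 2.91e-08) and 1.34 ± 0.12 (adjusted p = 3.31e-09), and MV4-11 and OCI-AML3 overlapped and were neighbours that did not differ beyond their spread (edgeR adjusted p = 0.526). CDK4 ran the other way, at 169.2 ± 2.6 CPM in MOLM13, 103.6 ± 18.4 CPM in MV4-11 and 125 ± 0.7 CPM in OCI-AML3. The last pair were neighbours whose difference (log2 0.27 ± 0.08, edgeR adjusted p = 0.00575) was under the fold limit, and was called without MV4-11 control replicate 2 (0.49). Per kb of all exon bases, CDK4 exceeded CDK6 in MOLM13 control cells, at 54.7 against 19.8 CPM per kb, while in the other lines the order turned with the length used. In MV4-11 it was 33.5 for CDK4 against 47.4 for CDK6 over all exon bases and 55.5 against 49.7 over the main transcript, and in OCI-AML3 it was 40.4 against 50.1 and 67 against 52.6.

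CCND2 was 141.3 ± 7.4 CPM in MOLM13, 51.5 ± 0.1 CPM in MV4-11 and 0.0839 ± 0.0473 CPM in OCI-AML3, and no 2 lines overlapped. CCND1 had another order, at 22.3 ± 0.1, 0.443 ± 0.086 and 38.8 ± 1.7 CPM. CCND3 was 347.5 ± 4.8, 165.6 ± 15.9 and 252.1 ± 5.1 CPM, and its difference between OCI-AML3 and MOLM13 (log2 -0.46 ± 0.06, edgeR adjusted p = 4.76e-07) was under the fold limit with no scaling (-0.27) and with limma-voom (-0.28). The CDK4 difference between OCI-AML3 and MOLM13 (log2 -0.44) was likewise under the limit with no scaling (-0.24). CDKN2C was 3.75-fold lower in MV4-11 than in MOLM13 and 2.54-fold higher in OCI-AML3. CDKN1C was highest in MV4-11, at 4.30 ± 1.30 CPM, against 0.126 ± 0.111 CPM in MOLM13 and 0.395 ± 0.085 CPM in OCI-AML3. The last pair were neighbours whose call (log2 1.63 ± 0.66, edgeR adjusted p = 0.0329) was lost without MOLM13 control replicate 2 or OCI-AML3 control replicate 2. CDKN1A was 151.8 ± 1.9, 121.7 ± 10.5 and 63 ± 1.1 CPM, and CDKN2D 20.2 ± 1.4, 16.2 ± 2.3 and 5.51 ± 0.59 CPM, both lowest in OCI-AML3. MV4-11 lay below MOLM13 by less than the fold limit in both genes (log2 -0.318 ± 0.070 and -0.308 ± 0.125), and both were called without MOLM13 control replicate 1 (-0.34 and -0.38) or without MV4-11 control replicate 2 (-0.45 and -0.51). CDKN1B was highest in MV4-11, at 131.5 ± 0.6 CPM, against 69.1 ± 0.98 CPM in MOLM13 and 73.8 ± 0.4 CPM in OCI-AML3, a pair whose difference did not pass the test (edgeR adjusted p = 0.197).

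Between the same 500 nM treatments of VTP50469 in OCI-AML3 and MOLM13, 4 members had a higher effect in OCI-AML3 and 1 a lower one, where 2.60% and 1.49% of 17597 genes were called. These were CCND1, CCND2, CDKN1A and CDKN2D on the higher side and CDKN2C on the lower. For MV4-11 at 1000 nM, given side by side and not compared, the VTP50469 libraries of 2 members, CCND1 and CCND2, lay below control there and above it in OCI-AML3 (3.72% of 14234 genes), and those of 0 members lay the other way round (4.27%). CDKN1A and CDKN2D lay above control in MV4-11 and below it in MOLM13 (6.32% of 13422 genes), and 0 members lay the other way round (6.27%). Line and mutation cannot be told apart here, since each genotype has 1 line at 500 nM.

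Across all 18 libraries, with each line's mean log level taken off, the genes whose pattern was most like that of CDK4 were EXOSC5, WDR18 and TRIAP1 (Pearson r of 0.993, 0.992 and 0.989). Those most like CDK6 were TPD52, CARNMT1 and SUV39H2 (0.971, 0.971 and 0.969), and those most like CDKN1A were TBC1D16, EFR3B and ADCK5 (0.972, 0.969 and 0.967). EXOSC5 changed by -2.10 on the log2 scale under both agents in MOLM13 and TPD52 by -1.88 under VTP50469 in MV4-11. EFR3B changed by 6.06 under OTX015 in MOLM13 and had no tested change in MV4-11. The points share libraries, depth and treatments, and these values are a description.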

How the data were processed

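Total RNA of 18 samples of MOLM13, MV4-11 and OCI-AML3 cells was sequenced on Illumina libraries. The authors deposited 1 table of raw read counts per gene ID, not normalized. The submitters' notes name STAR and hg38, while the study's methods name TopHat2 and Cufflinks2, and neither the annotation nor the strand setting is given in the sources used here. The Ensembl gene IDs were matched to symbols from a separate reference of gene names, and 0.156% of counts lay on gene IDs without a symbol. Group means are over libraries as labelled. Promoter sequences and gene coordinates came from RefSeq tables of GRCh38.p14. Exon lengths, main transcript lengths and exon overlaps came from a GENCODE annotation lifted to an older assembly. That annotation may differ from the one used for counting, and the values per kb and the shared exon bases rest on it.

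The tests used edgeR 4.0.16 in R 4.3.3, with quasi-likelihood fits of the counts, TMM factors and filterByExpr, in 1 fit per cell line, and in 1 fit of all 18 libraries for differences between lines. A CPM is a count scaled to a TMM-adjusted library of 1000000. Adjusted p-values are Benjamini-Hochberg over all tested genes. Standard errors were taken from the fold change and its F value. The alternatives were DESeq2 1.42.0, limma 3.58.1 (voom, quantile normalization), other scaling factors, no filter on low counts, a replicate block, 1 fit of all libraries, and each library left out. The edgeR step was tested on simulated data. Replicates of the same number did not deviate together, so the main fits carry no block. Total counts are given with the results, and replicates differed by more than counting noise. Intervals of count ratios are exact binomial and cover counting error only.

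All 10 genes are reported in every comparison. From each pathway list at most 4 called genes were named, those with the largest absolute log2 fold change, or every gene in lists of up to 5, and 1 of the S phase genes is not reported here by name. For CDK4, CDK6 and CDKN1A the 3 genes of highest r were named. TSPAN31, CDK6-AS1, DINOL and CCND2-AS1 come from a list of overlapping transcripts. The 10 genes and the lists were chosen with earlier results of these data known.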

Additional observations from a re-analysis of the deposited data

Results flagged for a closer look

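At the same 500 nM of VTP50469, the effect in OCI-AML3 differed from that in MOLM13, by the test of the difference in edgeR, for 5 of the 10 genes, 4 higher and 1 lower, where 2.60% and 1.49% of 17597 genes were called. The difference of log2 fold changes (OCI-AML3 minus MOLM13) was 4.76 for CCND2, 0.83 for CCND1, 0.71 for CDKN1A, 0.62 for CDKN2D and -0.66 for CDKN2C. The CDKN2D call was lost in 10 of 17 other settings. CCND2 was above control in 3 of 3 OCI-AML3 libraries and below control in 2 of 2 MOLM13 libraries. CDKN2C was below control in all treated libraries of both lines, and fell further in OCI-AML3.

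In MV4-11 at 1000 nM, every treated library lay on one side of every control library, and in another line on the other side, for 4 further gene and line pairs. The libraries of CCND1 (log2 fold change -1.18) and CCND2 (-0.92) lay below control in MV4-11 and above it in OCI-AML3, 2 of 10 members, where 3.72% of 14234 genes did so. Those of CDKN1A (0.46) and CDKN2D (0.37) lay above control in MV4-11 and below it in MOLM13, 2 of 10 members, where 6.32% of 13422 genes did so. The differences between lines were not tested, since the doses differ. The CCND1 and CDKN2D changes in MV4-11 did not pass the test on their own, nor did CDKN1A (-0.27) and CDKN2D (-0.25) pass the fold limit in MOLM13. The CDKN1A call in MV4-11 was lost without control replicate 1 (0.35), control replicate 2 (0.56) or VTP50469 replicate 1 (0.34).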

How the results depend on the processing

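Over all alternatives, 1529 values of single genes and levels kept their direction and their side of the threshold, 32 lost a call, 20 gained one, 18 changed sign and 17 levels moved by more than 1 SD. The counts of called genes moved by over 1.5 times only in 2 comparisons. For MV4-11 (3208 genes and 4 members called), leaving out a library gave 1637 to 3340 genes, the lowest without VTP50469 replicate 1, and 1798 without control replicate 1, and 1 fit of all 18 libraries called 5934 genes and 7 members, adding CCND1, CDKN1B and CDKN2D. For OCI-AML3 minus MOLM13 (721 genes), leaving out a library gave 462 to 684 genes, the lowest without MOLM13 VTP50469 replicate 2, with 467 and 473 without MOLM13 control replicates 1 and 2. With fewer libraries or another pooled spread these tests differ by construction, and where 1 library was left in a group it was assumed to vary like the other groups of the fit.

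All 18 changes of sign were in uncalled values near 0, or in CDKN1C with few counts. CDK6 under OTX015 turned to 0.0419 with no scaling factors and 0.0351 with limma-voom, and ran from -0.0310 to 0.0307 over the libraries left out. CDKN2C under both agents turned to 0.0786 (no scaling), 0.0315 (upper-quartile) and 0.0490 (limma-voom), and ran from -0.0574 to 0.0138. In the interaction, CDKN1C ran from -0.81 to 1.16 and CDKN1A from -0.0441 to 0.0727. CCND3 in MV4-11 turned to 0.0036 (limma-voom) and ran from -0.1679 to 0.0666. In OCI-AML3 minus MOLM13, CCND3 turned to -0.0001 (no scaling) and -0.0128 (upper-quartile), and CDK6 to -0.0237 (limma-voom). The cause was not tested.

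With DESeq2 the CDKN1C call against VTP50469 was lost (1.85) and one in OCI-AML3 minus MOLM13 was gained (2.57, adjusted p = 0.0384), while against OTX015 DESeq2 gave CDKN1C no adjusted p. The share of calls that were higher moved with the settings. For VTP50469 in MOLM13 it was 60.6%, and 74.4% with no scaling, 49.5% with no filter, 44.4% with DESeq2 and 47.6% in 1 fit of all libraries. For VTP50469 in OCI-AML3 it was 65.5%, and 76.5% with no scaling and 50.8% with limma-voom. For the interaction it was 47.6%, and 58.8% in 1 fit of all libraries.

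Same-numbered libraries did not pair by the check, with correlations of deviations from the group mean of -0.129 to 0.053 in MOLM13, 0.132 in MV4-11 and 0.004 to 0.262 in OCI-AML3, where 2 of 6 libraries correlated best with their own number. With the replicate block, 1847 genes were called for VTP50469, 6852 for OTX015 and 8867 for both in MOLM13, 4029 in MV4-11 and 2242 in OCI-AML3, and the only member whose call it changed was CDKN1C in OCI-AML3 against MOLM13 control cells (1.68, adjusted p = 0.0669). Depth limits CDKN1C in MOLM13 (1 to 18 counts a library), CCND1 in MV4-11 (3 to 12) and CCND2 in OCI-AML3 control cells (2 to 7).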
